A study of Mus musculus with 4 samples.

Results

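The genes described here build the cornified envelope, the protein shell that replaces the plasma membrane of keratinocytes in the outermost skin, and the filament-aggregating barrier proteins beneath it. They were taken by symbol: every gene whose symbol starts with Sprr or Lce, plus Flg, Flg2, Ivl, Lor, Crct1, Krtdap, Sbsn and Hrnr. This gave 44 symbols under 50 gene identifiers, of 27999 genes in the deposited tables. The symbols comprise 15 Sprr genes (small proline-rich proteins), 21 Lce genes (late cornified envelope proteins) and the 8 genes named singly. Flg is listed under 7 identifiers, and ENSMUSG00000102439 held nearly all of its UMIs (unique molecular identifiers, each counting 1 captured transcript). The other 6 Flg identifiers held 63 UMIs in keratinocytes together.

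In skin, keratinocytes of the basal layer divide, then move outward and differentiate. Suprabasal cells switch on keratins 1 and 10 together with early barrier genes, and granular cells later make filaggrin, loricrin and late cornified envelope proteins in bulk. Transglutaminases crosslink involucrin, loricrin and the small proline-rich proteins into the envelope, while filaggrin packs keratin filaments and is later broken down into moisturizing compounds. Most of these genes lie side by side in the epidermal differentiation complex.

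The series profiled back skin dermis of C57BL/6J mice with droplet-based (10x 3') single-cell RNA-seq, in 4 libraries, to compare hair follicle mesenchyme between ages. The 18-month and 2-month libraries of chemistry version 2 came from α-SMACreERT2 mice with a Rosa YFP reporter. The 12-month and 2-month libraries of chemistry version 3 carry a TdTomato label in place of YFP, although their protocol text still names YFP. All mice received tamoxifen on postnatal days 3 and 4, and the α-SMA promoter drives the Cre in smooth-muscle-actin-expressing cells such as the dermal sheath. Each sample is labelled as 2 mice, and pooling is not stated. After dispase the epidermis was peeled off, and the sort took 5000 cells positive for the reporter and 5000 Cd26-positive cells, in both gates with Itga9 or Cd200 as well. The keratinocytes here are therefore cells that came through a dermal, mesenchyme-directed preparation, not a sample of the epidermis. The study's design text counts the 12-month mice among the young cohorts. With 1 library per age and chemistry there is no replicate of an age within a chemistry.

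The libraries held 2727 (18 months) and 1906 (2 months) barcodes in version 2, and 5474 (12 months) and 7023 (2 months) in version 3, of which 13460 in all were kept after filtering. The age of the version 2 libraries carries a doubt. The labels give 3776 recovered cells at 18 months and 2604 at 2 months, more at 18 months as in the files, but neither number equals its file's barcode count. The design text gives 1906 for the sample listed as 18 months and 2707 for the one listed as 2 months, and 1906 is the barcode count of the 2-month file. Files were assigned by the sample labels. Were these 2 files exchanged, each ratio of 18 over 2 months would turn over and the tests that use both pairs would not hold as given. The version 3 pair would not be touched. Median depth of kept cells was 6253 to 6594 UMIs in version 2 and 11793 to 11926 in version 3. Chemistry is confounded with the older age, so ages were compared within a chemistry. Kept barcodes shared between libraries numbered 7 in the version 2 pair and 11 in the version 3 pair, with at most 1 between chemistries. In the keratinocyte counts below, fewer cells making a transcript and less transcript per cell are separated only where per-cell values are given.

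The mouse genome places 42 of the symbols within positions 92080271 to 93333570 of chromosome 3 (GRCm38), and Krtdap and Sbsn on chromosome 7. RefSeq promoter sequences (GRCm38.p6) matched 41 symbols, of which Sprr2a1 and Sprr2a2 shared 1 sequence, leaving 40. In windows of 250 bases before to 50 after the start, on either strand, the AP-1 motif TGANTCA was in 15 of 40 distinct member promoters and in 7.79% of all 32544 promoters. The TATA motif TATAAA was in 19 of 40, and in 13.6% of all promoters. The AP-1 letters were in 7 of 10 Sprr2 promoters and in 0 of 20 Lce promoters. Those 7 were laid out alike, with the first AP-1 match between -198 and -193 and TATAAA at -29. The 200 bases before the start are shown for 2 broadly expressed members (Krtdap, Ivl), 2 late members (Flg, Lor), 2 Sprr2 genes with the shared layout (Sprr2d, Sprr2i) and 1 Lce gene with neither motif (Lce3c). They read 5′ to 3′ on the gene's own strand, with AP-1 and TATA matches in capitals:
Krtdap: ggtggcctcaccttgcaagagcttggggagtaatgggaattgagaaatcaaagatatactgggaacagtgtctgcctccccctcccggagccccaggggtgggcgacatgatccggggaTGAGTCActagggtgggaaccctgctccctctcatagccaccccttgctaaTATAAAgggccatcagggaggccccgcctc
Ivl: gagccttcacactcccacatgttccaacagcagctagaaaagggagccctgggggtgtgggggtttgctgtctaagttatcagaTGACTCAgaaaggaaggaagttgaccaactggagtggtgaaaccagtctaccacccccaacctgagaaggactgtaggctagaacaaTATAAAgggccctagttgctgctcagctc
Flg: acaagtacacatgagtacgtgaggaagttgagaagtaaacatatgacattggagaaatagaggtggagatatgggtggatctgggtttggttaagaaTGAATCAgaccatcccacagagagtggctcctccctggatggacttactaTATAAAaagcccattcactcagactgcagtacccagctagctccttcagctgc
Lor: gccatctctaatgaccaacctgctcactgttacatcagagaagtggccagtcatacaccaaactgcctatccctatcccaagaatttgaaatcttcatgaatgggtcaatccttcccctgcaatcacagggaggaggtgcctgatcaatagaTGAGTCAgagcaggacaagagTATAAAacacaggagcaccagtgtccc
Sprr2d: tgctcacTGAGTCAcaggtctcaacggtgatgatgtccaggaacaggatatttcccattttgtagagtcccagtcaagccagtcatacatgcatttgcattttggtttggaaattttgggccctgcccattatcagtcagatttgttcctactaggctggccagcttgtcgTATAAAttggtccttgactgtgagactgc
Sprr2i: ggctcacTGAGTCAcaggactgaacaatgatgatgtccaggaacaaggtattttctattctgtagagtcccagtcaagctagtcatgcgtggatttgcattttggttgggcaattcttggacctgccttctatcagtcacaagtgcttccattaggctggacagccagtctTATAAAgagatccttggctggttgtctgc
Lce3c: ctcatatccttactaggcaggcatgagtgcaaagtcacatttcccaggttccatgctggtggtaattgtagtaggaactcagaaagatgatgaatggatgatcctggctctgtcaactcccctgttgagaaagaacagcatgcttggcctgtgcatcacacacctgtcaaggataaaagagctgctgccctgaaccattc
These lie at chr7:30787705-30787904 for Krtdap, chr3:92573736-92573935 for Ivl, chr3:93273346-93273545 for Flg, chr3:92083143-92083342 for Lor, chr3:92338940-92339139 for Sprr2d, chr3:92407791-92407990 for Sprr2i and chr3:92944286-92944485 for Lce3c, on the minus strand for Ivl and Lor and the plus strand for the others. In Lor the AP-1 match is 48 bases before the start, whereas in Sprr2d and Sprr2i it is 193 bases away. A match is a description of letters and not evidence of binding.

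Keratinocytes were called where a cell had at least 5 UMIs of Krt10 or of Krt5. There were 160 of them at 18 months against 378 at 2 months in version 2, and 208 at 12 months against 276 at 2 months in version 3. Members took 546716 UMIs in these 1022 cells and 16840 in the 12438 other cells. Of the 50 identifiers, 20 had at least 100 UMIs in keratinocytes and are described one by one, 17 had 1 to 39 UMIs, and 13 had none. Among Lce genes 12 of 21 were seen, with 732 UMIs in all. As CPM (a gene's share of all UMIs of the same cells, scaled to 1000000), members summed to 15631 at 18 months and 27108 at 2 months in version 2, a ratio of 0.577 (95% interval 0.571 to 0.583). In version 3 they summed to 18748 CPM at 12 months and 27952 CPM at 2 months, a ratio of 0.671 (0.666 to 0.676). All such intervals are exact conditional Poisson intervals and cover counting error only, not the spread between mice.

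The gate took in different mixtures of cells. Cells that passed it on Krt5 alone made up 59 of 160 at 18 months and 19 of 378 at 2 months in version 2, and 85 of 208 at 12 months and 98 of 276 at 2 months in version 3. In these Krt5-only cells members summed to 322 and 451 CPM at 18 and 2 months, and to 251 and 522 CPM at 12 and 2 months. Cells with only 5 to 9 Krt10 UMIs numbered 34 at 18 months against 130 at 2 months in version 2, and 35 at 12 months and 24 at 2 months in version 3. Of these, 29, 78, 28 and 20 carried at least 20 UMIs of the fibroblast collagens Col1a1, Col1a2 and Col3a1, and 20 in the version 2 library at 2 months carried at least 20 UMIs of the immune gene Cd74. Cells with at least 50 Krt10 UMIs were taken as the Krt10-high group. Each library held cells on both sides of this cut. At 20 to 49 Krt10 UMIs there were 3 and 4 cells at 18 and 2 months, and 6 and 13 at 12 and 2 months. At 50 to 99 there were 4 and 1 cells at 18 and 2 months, and 7 and 11 at 12 and 2 months. The Krt10-high cells numbered 59 at 18 months against 217 at 2 months in version 2, and 77 at 12 months and 136 at 2 months in version 3.

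**Figure D1:**
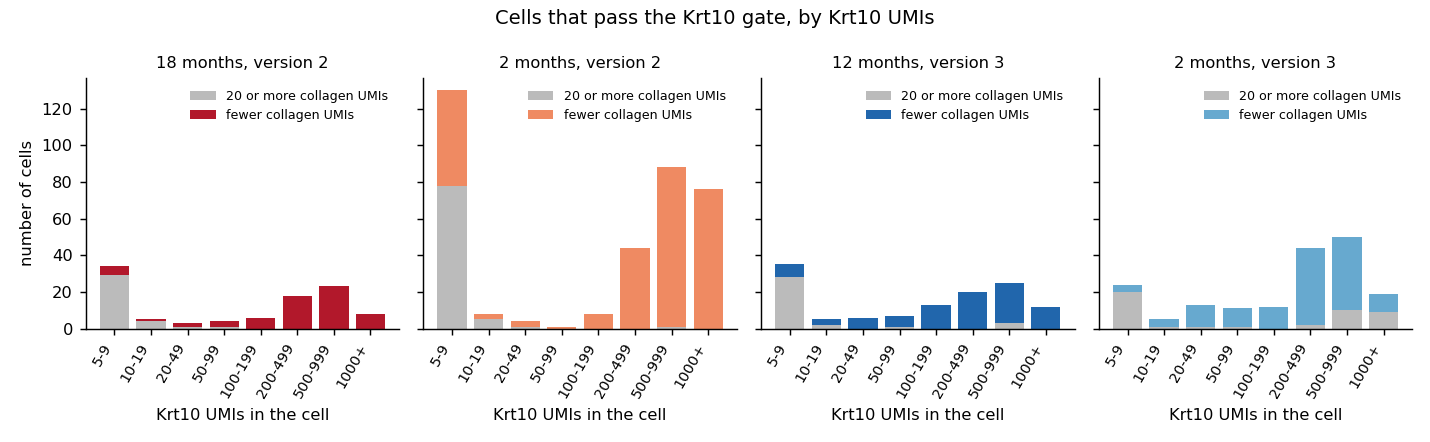
Number of cells (y axis) by Krt10 UMIs in the cell (x axis) for cells that pass the Krt10 gate, 1 panel per library, with cells carrying at least 20 collagen UMIs in grey. The low bin of 5 to 9 UMIs holds 130 cells in the version 2 library at 2 months and 24 to 35 in the other libraries, and most of those cells are grey in every panel.

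In the Krt10-high cells, the sum of all members was 30193 CPM at 18 months and 35124 CPM at 2 months in version 2, a ratio of 0.86 (0.851 to 0.869). It was 34414 CPM at 12 months and 42878 CPM at 2 months in version 3, a ratio of 0.803 (0.796 to 0.809). The age difference in the sum was thus smaller here than over all gated keratinocytes in both pairs. The high group was set after the distribution was seen, and the values below are for it unless stated. Its median depth was 22965 and 27803 UMIs at 18 and 2 months, and 28423 and 30032 UMIs at 12 and 2 months. Of its cells, 1 of 59 and 1 of 217 (18 and 2 months) and 4 of 77 and 22 of 136 (12 and 2 months) carried at least 20 collagen UMIs. The per-cell member level ranged from 107 to 102804 CPM at 18 months and from 4083 to 159437 CPM at 2 months, with medians of 30826 and 31101 CPM. In version 3 it ranged from 5994 to 85872 CPM at 12 months and from 676 to 114300 CPM at 2 months, with medians of 25128 and 38451 CPM.

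Krtdap, a secreted protein of differentiating keratinocytes, supplied 69.2% of member UMIs at 18 months and 62.2% at 2 months in version 2. Its share in version 3 was 57.5% at 12 months and 56% at 2 months. Its level was 20885 CPM at 18 months and 21830 CPM at 2 months, and 19772 CPM at 12 months and 24021 CPM at 2 months, so its ratios were 0.957 and 0.823. Krtdap was found in every Krt10-high cell of every library.

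Sbsn (suprabasin), a secreted protein of the suprabasal layers, was at 4234 CPM at 18 months and 4517 CPM at 2 months in version 2, a ratio of 0.937 (0.911 to 0.965). The version 3 level was 9676 CPM at 12 months and 11406 CPM at 2 months, a ratio of 0.848 (0.836 to 0.861). Its overlap with Tmem147os on the same strand leaves the source of some reads uncertain. Ivl (involucrin), an early scaffold of the envelope, was at 536 CPM at 18 months and 411 CPM at 2 months, a ratio of 1.3 (1.2 to 1.42). In version 3 it was at 321 CPM at 12 months and 417 CPM at 2 months, a ratio of 0.769 (0.709 to 0.834), so its direction differed between the pairs.

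Sprr1a, a crosslinked envelope protein, was at 2125 CPM at 18 months and 1877 CPM at 2 months, and at 2109 CPM at 12 months and 2246 CPM at 2 months. These ratios of 1.13 and 0.939 were both close to 1. Sprr1b, its near relative, did not follow it. It was at 454 CPM at 18 months and 2108 CPM at 2 months, a ratio of 0.215 (0.198 to 0.233), against 688 CPM at 12 months and 621 CPM at 2 months, a ratio of 1.11 (1.04 to 1.17). The version 2 library at 2 months stands above the other libraries for Sprr1b, with UMIs in 91.2% of its cells.

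**Figure D2:**
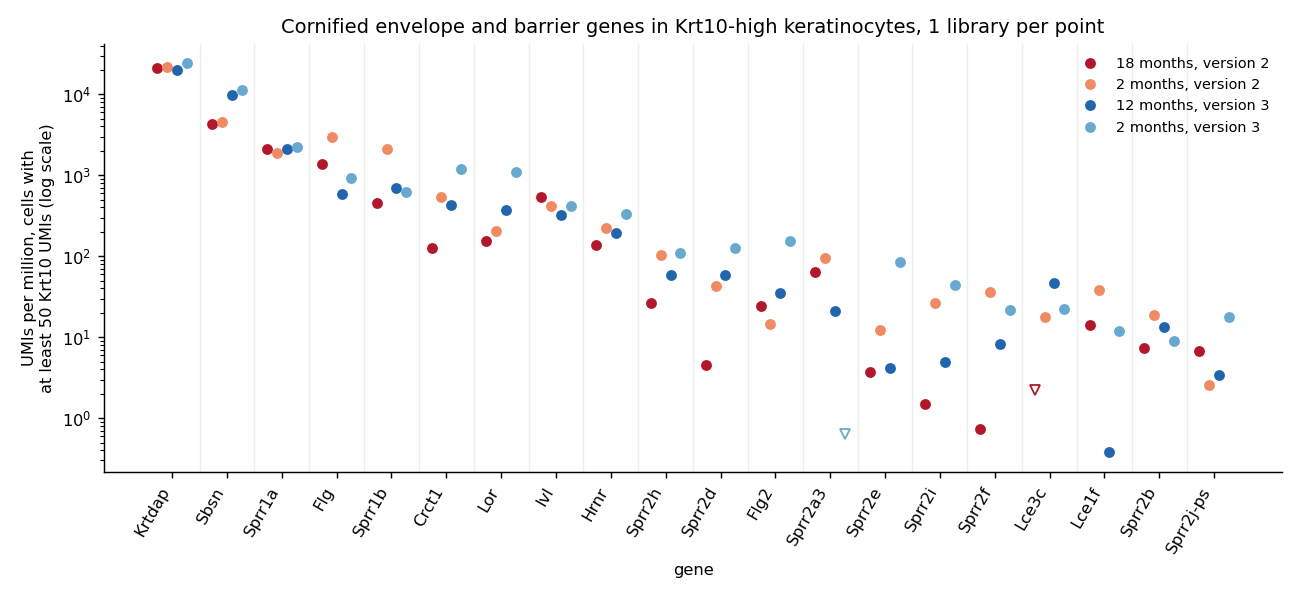
CPM on a log scale (y axis) of the 20 members with at least 100 UMIs in keratinocytes (x axis), in cells with at least 50 Krt10 UMIs, 1 point per library; open triangles stand at the level of 3 UMIs where a library held none. Krtdap lies between 19772 and 24021 CPM in the 4 libraries, while the 4 libraries of Crct1 spread from 127 to 1202 CPM.

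Flg, Lor, Crct1 and Hrnr, made late in differentiation, were lower in both older libraries. Flg (filaggrin), the filament-aggregating protein, was at 1386 CPM at 18 months and 3002 CPM at 2 months in version 2, a ratio of 0.462 (0.44 to 0.484). Its version 3 level was 590 CPM at 12 months and 925 CPM at 2 months, a ratio of 0.637 (0.601 to 0.676). Flg overlaps Rplp0-ps1 on the same strand. Both older libraries were lower than their 2-month partner.

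Lor (loricrin), the main protein of the mature envelope, was at 153 CPM at 18 months and 203 CPM at 2 months, a ratio of 0.755 (0.648 to 0.876). In version 3 it was at 368 CPM at 12 months and 1097 CPM at 2 months, a ratio of 0.335 (0.313 to 0.359). By ratio, Lor differed more in version 3 and Flg more in version 2. Crct1 (cysteine-rich C-terminal 1), a gene of the same complex, was at 127 CPM at 18 months and 532 CPM at 2 months, and at 435 CPM at 12 months and 1202 CPM at 2 months. Its ratios were 0.238 (0.203 to 0.278) and 0.362 (0.34 to 0.386), more than 2-fold lower in both older libraries. Hrnr (hornerin), a filaggrin-like protein, was at 137 CPM at 18 months and 224 CPM at 2 months, and at 196 CPM at 12 months and 330 CPM at 2 months, with ratios of 0.611 and 0.596.

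Flg2 (filaggrin-2) behaved differently in the pairs. It was at 24.6 CPM at 18 months and 14.5 CPM at 2 months, from 33 and 85 UMIs, a ratio of 1.7 (1.1 to 2.56). The level in version 3 was 34.7 CPM at 12 months and 154 CPM at 2 months, a ratio of 0.226 (0.18 to 0.281). Summed after their values were seen, Flg, Lor, Crct1 and Hrnr were at 1803 CPM at 18 months and 3962 CPM at 2 months, a ratio of 0.455 (0.436 to 0.475). In version 3 they were at 1589 CPM at 12 months and 3553 CPM at 2 months, a ratio of 0.447 (0.432 to 0.463). Krtdap, Sbsn, Sprr1a and Ivl together had ratios of 0.97 (0.959 to 0.981) and 0.837 (0.83 to 0.844).

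The Sprr2 genes encode small envelope proteins that are induced in terminal differentiation and in barrier stress, and most of them were lower in the older libraries. Together they were at 114 CPM at 18 months and 336 CPM at 2 months, a ratio of 0.339 (0.286 to 0.4), and at 172 CPM at 12 months and 413 CPM at 2 months, a ratio of 0.417 (0.375 to 0.462). Sprr2d had 6 UMIs at 18 months against 254 at 2 months, and 155 at 12 months against 594 at 2 months, with ratios of 0.103 (0.0375 to 0.228) and 0.466 (0.388 to 0.557). Sprr2i, whose promoter shares the layout shown for Sprr2d, had 2 and 155 UMIs at 18 and 2 months, and 13 and 208 UMIs at 12 and 2 months. Its ratios were 0.0563 (0.00676 to 0.207) and 0.112 (0.0584 to 0.195). For Sprr2i in version 3, however, 193 of the 208 UMIs at 2 months came from 1 cell.

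Sprr2e had 5 and 71 UMIs at 18 and 2 months, and 11 and 405 UMIs at 12 and 2 months, with ratios of 0.308 and 0.0485. Of the 405 UMIs, 308 were in 1 cell. Sprr2f had 1 and 211 UMIs at 18 and 2 months, a ratio of 0.0207 (0.000522 to 0.117), and 22 and 102 UMIs at 12 and 2 months, a ratio of 0.385. Sprr2h was at 26.1 CPM at 18 months and 103 CPM at 2 months, and at 58.5 CPM at 12 months and 109 CPM at 2 months, with ratios of 0.253 and 0.537. So all of Sprr2d, Sprr2e, Sprr2f, Sprr2h and Sprr2i were lower in both older libraries.

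The remaining Sprr2 genes were mixed. Sprr2b had 10 and 111 UMIs at 18 and 2 months, and 35 and 43 UMIs at 12 and 2 months, with ratios of 0.393 and 1.45. Of the 35 UMIs at 12 months 33 were in 1 cell, as were 42 of the 43 at 2 months. Sprr2a3 had 85 and 550 UMIs at 18 and 2 months, a ratio of 0.675 (0.531 to 0.849), with 74 of the 85 in 1 cell. In version 3 it had 56 UMIs at 12 months, 52 of them in 1 cell, and none at 2 months, so it was at least 33.3-fold higher against a floor of 3 UMIs in that library. Over the last 300 transcript bases Sprr2a3 is 99.3% identical to Sprr2a1, and Sprr2a1 and Sprr2a2 are 100% identical, so the counting could split or drop their reads and Sprr2a3 values are uncertain. The pseudogene Sprr2j-ps had 9 and 15 UMIs at 18 and 2 months, a ratio of 2.62 (1.01 to 6.39), with all 9 in 1 cell. In version 3 it had 9 and 85 UMIs at 12 and 2 months, a ratio of 0.189, with 74 of the 85 in 1 cell.

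The Lce genes, made late in differentiation, were sparse. Lce1f had 19 UMIs at 18 months, all in 1 cell, and 224 in 21 cells at 2 months, a ratio of 0.37 (0.219 to 0.592). In version 3 it had 1 UMI at 12 months and 57 at 2 months, a ratio of 0.0313 (0.00078 to 0.182). Lce3c had no UMI at 18 months and 105 at 2 months, at least 8.01-fold lower, and 124 at 12 months, all in 1 cell, against 107 at 2 months, a ratio of 2.07 (1.58 to 2.71). Lce3c is 94% identical to Lce3b over the last 300 transcript bases, so their reads may be split. Lce genes together had ratios of 0.216 (0.129 to 0.342) and 1.33 (1.06 to 1.67). In each of these libraries the Lce values rest on a handful of cells.

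**Figure D3:**
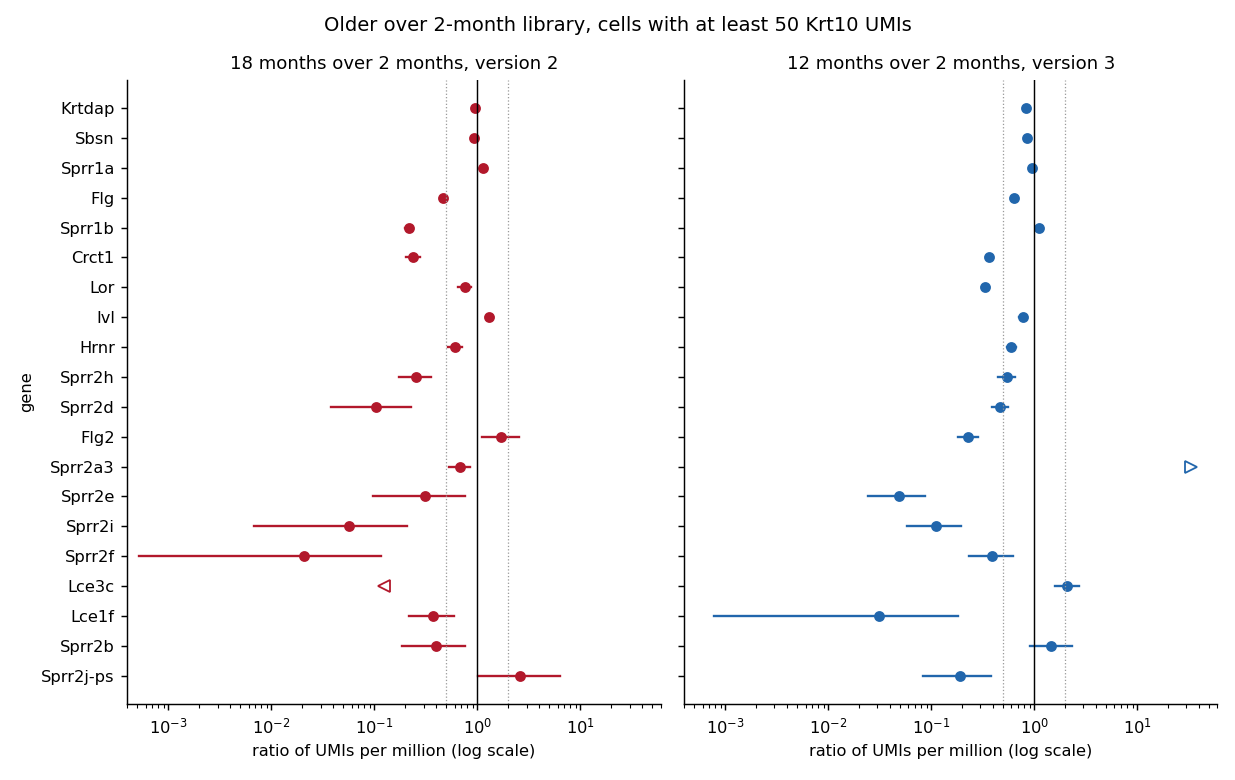
Ratio of CPM on a log scale (x axis), older over 2-month library, for the 20 members (y axis) in cells with at least 50 Krt10 UMIs, with exact 95% Poisson intervals that cover counting error only; dotted lines mark 2-fold and open arrows mark bounds against a library at 0. Krtdap lies at 0.957 and 0.823, and Crct1 at 0.238 and 0.362.

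Against the background of all genes, the members were lower more often. In Krt10-high cells of version 2, 12 of 21 members with at least 20 UMIs in the pair were at least 2-fold lower at 18 months, as were 5.1% of all genes so measured. The members at least 2-fold higher numbered 1, against 7.55% of all genes. In version 3, 9 of 20 members were at least 2-fold lower at 12 months, against 5.86% of all genes, and 2 at least 2-fold higher, against 1.8%. The members' median log2 ratio was -1.28 at 18 months and -0.82 at 12 months, where all genes had medians of 0.12 and -0.10. Crct1, Lce1f, Sprr2d, Sprr2e, Sprr2f and Sprr2i were at least 2-fold lower in both pairs, and none of the 20 was at least 2-fold higher in both. The percents of all genes above are for single pairs. No share of all genes past 2-fold in both pairs was taken, so this list has no background.

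Over all gated keratinocytes 14 of 21 members were at least 2-fold lower at 18 months and 11 of 20 at 12 months, against 5.07% and 3.52% of all genes. The members at least 2-fold higher numbered 0 at 18 months and 1 at 12 months, against 12.1% and 3.82% of all genes. Here Hrnr and Sprr2h joined the genes that were at least 2-fold lower in both pairs, which made 8 of 20, again without a background for both pairs.

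Single cells set some of these values. Leaving out, in each library, the keratinocyte with the most UMIs of the gene lowered the Flg ratio to 0.198 at 18 months and 0.24 at 12 months, against 0.308 and 0.526 with all gated keratinocytes. Lor went to 0.229 and 0.127, against 0.51 and 0.283 with all gated keratinocytes. Crct1 was at 0.102 and 0.254, and Hrnr at 0.328 and 0.361, so these late genes were lower in both older libraries with and without their richest cell. Sprr2i at 12 months moved the other way, to 0.549, against 0.0913 with all gated keratinocytes, and Sprr2d to 0.573, against 0.38, so neither was then at least 2-fold lower at 12 months. Sprr2e at 12 months was at 0.0912, against 0.0399, and Sprr2f at 0.024, against 0.313. The values left for Sprr2i (6 UMIs at 12 months, 16 at 2 months) and Sprr2f (1 and 61 UMIs) are small counts. The older libraries hold fewer Krt10-high cells, so 1 cell is a larger share of them. The part of this in the shifts above was not tested. Krtdap moved by little, to 0.626 and 0.666, against 0.64 and 0.684.

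Of the late genes, Lor was carried by few cells. In Krt10-high cells the tenth of cells richest in Lor held 96.6% of its UMIs at 18 months against 92.2% at 2 months, and 99.5% at 12 months against 97.6% at 2 months. For Krtdap that share was 22.6% and 22% at 18 and 2 months, and 28.8% and 27.6% at 12 and 2 months. Sprr1a lay between, with UMIs in 83.1% of cells at 18 months and 91.2% at 2 months, and in 85.7% at 12 months and 87.5% at 2 months. Flg was in 50.8% of cells at 18 months and 84.8% at 2 months, and in 24.7% at 12 months and 50% at 2 months. After thinning each cell to 3000 UMIs, which left out 4 shallower cells of the version 3 library at 2 months and none elsewhere, these Flg shares were 35.6% and 63.1%, and 10.4% and 30.3%. In Col1a1-gated cells, which should lack Flg, the unthinned share was 3.45% and 20.7% at 18 and 2 months and 0.825% and 2.97% at 12 and 2 months, at median depths of 7692, 6718, 13157 and 13682 UMIs. Thinned to 3000 UMIs, with 42, 0, 20 and 26 shallower cells left out, it was 1.46% and 7.83% at 18 and 2 months and 0.289% and 0.844% at 12 and 2 months.

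**Figure D4:**
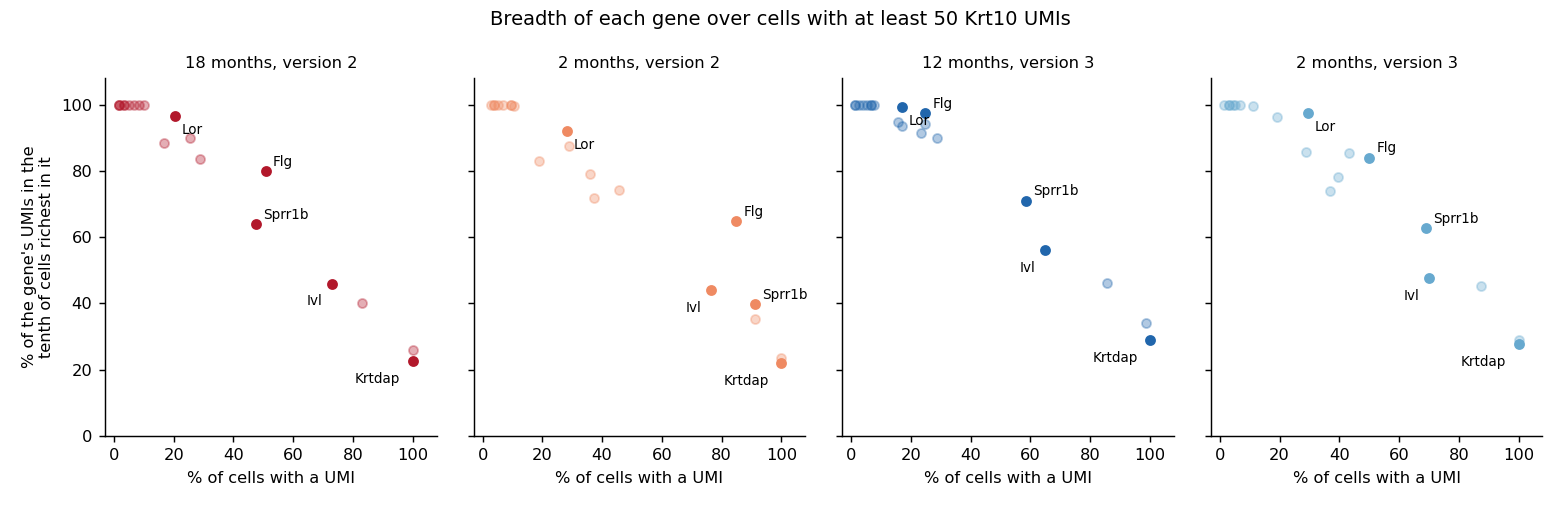
For each of the 20 members in cells with at least 50 Krt10 UMIs, the percent of cells with a UMI (x axis) against the percent of the gene's UMIs held by the tenth of cells richest in it (y axis), 1 panel per library, with 5 genes named. Krtdap sits at 100% of cells and 22% to 28.8% of UMIs, and Lor at 16.9% to 29.4% of cells and 92.2% to 99.5% of UMIs.

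A Flg-rich state was defined by at least 10 Flg UMIs. It held 17 of 59 Krt10-high cells at 18 months (28.8%, Clopper-Pearson 95% interval 17.8 to 42.1) and 126 of 217 at 2 months (58.1%, 51.2 to 64.7). In version 3 it held 9 of 77 cells at 12 months (11.7%, 5.49 to 21) and 34 of 136 at 2 months (25%, 18 to 33.1). The interval covers counting error of cells only, and each share comes from 1 library. The Flg-rich cells were also deeper, with medians of 29543 and 29834 UMIs at 18 and 2 months and 51508 and 42025 UMIs at 12 and 2 months. The other Krt10-high cells had medians of 18471 and 24699 UMIs at 18 and 2 months. In version 3 they had 24883 and 27127 UMIs at 12 and 2 months. The Flg-rich shares were not taken on thinned cells, so depth may enter them.

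The Flg-rich cells held 99% and 99.1% of Lor UMIs at 18 and 2 months, and 97.8% and 98.1% at 12 and 2 months, so nearly all Lor UMIs came from cells that also held Flg. Within them the age differences were uneven. Hrnr was at 353 CPM at 18 months and 349 CPM at 2 months, and at 782 CPM at both 12 and 2 months in version 3. Lor was at 424 CPM at 18 months and 322 CPM at 2 months, and at 2037 CPM at 12 months and 3301 CPM at 2 months. Crct1 was at 337 CPM at 18 months and 828 CPM at 2 months, and at 883 CPM at 12 months and 3067 CPM at 2 months, lower in both older libraries. Krtdap in these cells was at 23535 and 23963 CPM at 18 and 2 months, and at 27247 and 27342 CPM at 12 and 2 months. For Hrnr the share of Flg-rich cells was smaller in the older libraries, and its level within them was close to that at 2 months. For Crct1 both were lower. Single cells weigh on these levels, which at 12 months rest on 9 cells. In version 3, 1 Krt10-high cell held 187 of 520 Hrnr UMIs at 12 months and 198 of 1559 at 2 months. For Lor, 1 cell held 129 of 206 UMIs at 18 months and 725 of 974 at 12 months. The levels were not taken without these cells. Flg-rich cells held 95.3% and 97.5% of Crct1 UMIs at 18 and 2 months, but 35.8% and 83.2% at 12 and 2 months. In the other Krt10-high cells Crct1 was at 9.28 and 35.6 CPM at 18 and 2 months. There it was at 339 and 300 CPM at 12 and 2 months, so it was not lower in version 3. Why the share differed was not tested.

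A test with more than 1 library on each side was possible only by setting both older libraries (18 and 12 months) against both libraries of 2-month mice. The model also fits chemistry and has 1 residual degree of freedom. Because the older libraries differ in age, that 1 degree of freedom holds the difference between the 18-month and 12-month changes. It does not measure the spread between replicates of an age. It used edgeR's quasi-likelihood test on counts summed per library, with Benjamini-Hochberg adjustment over all genes tested and a threshold of 0.05. In the Krt10-gated cells (at least 5 Krt10 UMIs) 10 of 20 members were called, all lower in the older libraries. The background was 1.65% of 10788 genes called lower and 1.8% called higher. The called members were Sprr2e (log2 fold -3.82 ± 0.41 SE), Sprr2i (-3.56 ± 0.35), Sprr2f (-2.48 ± 0.43), Lce1f (-2.42 ± 0.41) and Crct1 (-1.98 ± 0.24). With them were Sprr2d (-1.84 ± 0.31), Sprr2h (-1.56 ± 0.24), Lor (-1.22 ± 0.24), Flg (-1.10 ± 0.23) and Hrnr (-0.95 ± 0.20), with edgeR adjusted p-values from 2.95e-06 for Sprr2i to 0.00682 for Flg. The fit was not repeated without the single cells that held most of a gene's UMIs in a library. In version 3 at 2 months 1 cell held 193 of 208 UMIs of Sprr2i, 308 of 405 of Sprr2e and 319 of 596 of Sprr2d. At 12 months 1 cell held 1026 of 1573 UMIs of Flg, 725 of 979 of Lor and 21 of 22 of Sprr2f. At 18 months 1 cell held 129 of 206 UMIs of Lor, and 1 held all 19 of Lce1f. Krtdap (-0.38 ± 0.21), Sbsn (-0.37 ± 0.21), Sprr1a (-0.12 ± 0.21) and Ivl (-0.18 ± 0.21) did not pass, with edgeR adjusted p-values of 0.495, 0.528, 0.925 and 0.85.

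The same fit called markers of other cell types. It called 4 of 6 fibroblast markers higher and 5 of 5 tested macrophage and dendritic cell markers lower in the older libraries, with Dcn at a log2 fold of 2.45 and Fcer1g at -2.23. It also called 3 of 3 tested smooth muscle and pericyte markers and the 1 tested melanocyte marker lower. Called higher were 2 of 5 inner root sheath and hair shaft markers, 1 of 6 markers of outer root sheath, infundibulum and bulge, and 1 of 2 sebaceous gland markers. In cells with 5 to 9 Krt10 UMIs the 6 fibroblast markers summed to 31742 and 19977 CPM at 18 and 2 months, and to 25268 and 12376 CPM at 12 and 2 months. Beyond moving the gate, the part of these cells in the members' calls was not tested. At a gate of 10 UMIs 3 of 20 members and 12 of 9411 genes were called, and with at least 50 Krt10 UMIs no member was. In that last fit edgeR called 0% of 8996 genes higher and 0.0111% lower. At an unadjusted edgeR p under 0.05 it had 10 of 20 members, where 4.97% of all genes passed. DESeq2, which had no filter on low counts, called 3 of 36 members and 0.0449% of all genes. The estimates there stayed close, with Sprr2i at -3.37 ± 0.38, Crct1 at -1.77 ± 0.29, Lor at -1.01 ± 0.30 and Hrnr at -0.74 ± 0.23, and edgeR adjusted p-values of 0.0901, 0.304, 0.924 and 0.924.

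Over all gated keratinocytes edgeR called 2 of 20 members, Sprr2i (-3.87 ± 0.37, adjusted p = 0.0197) and Sprr2e (-4.02 ± 0.47, adjusted p = 0.0379). The background was 0.162% of 11728 genes called lower and 0.102% called higher. Without the chemistry covariate no member was called in any of these fits, and at an unadjusted edgeR p under 0.05 there were then 7 members in keratinocytes and 5 in Krt10-gated cells, where 4.22% and 3.74% of all genes passed.

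Other genes of the barrier were followed through fixed lists, in Krt10-high cells. Of 5 crosslinking genes (transglutaminases and plakins) 2 were at least 2-fold lower at 18 months and 0 at 12 months, with median log2 ratios of 0.10 and -0.40. The plakins Ppl and Evpl, which line the membrane under the envelope, were at 129 and 120 CPM and at 151 and 125 CPM at 18 and 2 months. In version 3 they were at 202 and 267 CPM and at 131 and 193 CPM at 12 and 2 months. None of the 5 was called in the Krt10-gated fit.

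Of 17 lipid barrier genes, 15 were measured in each pair, 1 was at least 2-fold lower in each, and the medians were -0.33 and -0.32. The fatty acid elongases Elovl4 and Elovl1 had the most UMIs. Elovl4 was at 719 and 930 CPM at 18 and 2 months and at 655 and 749 CPM at 12 and 2 months. In the Krt10-gated fit edgeR called Elovl1 (-0.79 ± 0.21, adjusted p = 0.0373) and Alox12b (-1.16 ± 0.20, adjusted p = 0.00145), a lipoxygenase needed for the lipid envelope, both lower in the older libraries. In Krt10-high cells Alox12b was at 35 and 63.8 CPM at 18 and 2 months and at 36.6 and 73.6 CPM at 12 and 2 months.

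Corneodesmosome and junction genes had medians of 0.17 at 18 months and 0.00 at 12 months over 14 and 15 measured genes, with Perp at ratios of 0.867 and 1.16 and Dsp (desmoplakin) at 1.02 and 0.853. The desmosomal cadherin Dsc1 was called lower in the Krt10-gated fit (edgeR, -0.94 ± 0.20, adjusted p = 0.00731). Among 18 proteases and inhibitors, 7 were at least 2-fold lower at 18 months and 1 at 12 months, with medians of -0.67 and -0.28. Asprv1, the protease that trims profilaggrin, was at 1841 and 1796 CPM at 18 and 2 months and at 2029 and 3093 CPM at 12 and 2 months. In the Krt10-gated fit edgeR called Casp14, which takes part in filaggrin breakdown, lower (-0.92 ± 0.25, adjusted p = 0.0436) and the lysosomal protease Ctsl higher (0.81 ± 0.18, adjusted p = 0.0117). The cystatin Cst6 had ratios of 0.496 and 2.46.

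The 21 transcription factors and signalling regulators of differentiation had medians of 0.37 and -0.07, with 2 at least 2-fold higher at 18 months and none past 2-fold at 12 months. Klf4 was at 863 and 945 CPM at 18 and 2 months and at 867 and 1080 CPM at 12 and 2 months, and Gata3 had ratios of 1.76 and 0.971. EdgeR called none of the 21 in Krt10-gated cells. Of 30 other differentiation genes, 27 and 28 were measured, with medians of -0.23 and -0.05. Lgals7 and Krt1, the most abundant, had ratios of 0.643 and 0.859, and of 0.576 and 1.16. In the Krt10-gated fit Cnfn (cornifelin), an envelope component, fell (edgeR, -1.24 ± 0.23, adjusted p = 0.00202), as did Rptn (repetin) (-2.11 ± 0.41, adjusted p = 0.00367) and S100a3 (-1.60 ± 0.43, adjusted p = 0.0392). Krt2 rose in that fit (edgeR, 2.28 ± 0.52, adjusted p = 0.0118), although its ratio in Krt10-high cells was 16.5 at 18 months and 0.86 at 12 months.

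The stress keratins and alarmins, a list of 12 genes induced in wounded or inflamed epidermis, went opposite ways in the pairs, a difference that could not be tested with 1 library each. At 18 months 7 of 8 measured genes were at least 2-fold lower, with a median log2 ratio of -1.26. At 12 months 7 of 10 were at least 2-fold higher, with a median of 4.25. Krt16 was at 1008 and 2161 CPM at 18 and 2 months, and at 2916 and 1032 CPM at 12 and 2 months. Krt17 was at 61.1 and 645 CPM at 18 and 2 months, and at 1171 and 97.9 CPM at 12 and 2 months. Krt6b, named after its values were seen, had 898 and 7831 UMIs at 18 and 2 months, and 1992 and 2 UMIs at 12 and 2 months. So in version 3 the 2-month library was the low one for this list, and in version 2 the 18-month library was. In the Krt10-gated fit edgeR called Il1f9 (-1.07 ± 0.24, adjusted p = 0.0117) and Slpi (-1.01 ± 0.24, adjusted p = 0.0156) lower. The part of this list's change in the members' differences was not tested.

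Markers of other cells varied beside the members in Krt10-high cells. The 7 basal markers summed to 1997 and 1406 CPM at 18 and 2 months, and to 2382 and 711 CPM at 12 and 2 months. The 7 markers of outer root sheath, infundibulum and bulge summed to 822 and 2197 CPM at 18 and 2 months, and to 5303 and 1536 CPM at 12 and 2 months. They include Krt17 and Cst6, already given above in other lists, so this sum is not a separate observation from those genes. The 8 inner root sheath and hair shaft markers found in the files summed to 17.9 and 22 CPM at 18 and 2 months, and to 24.2 and 30.4 CPM at 12 and 2 months. The 6 suprabasal markers that are not members summed to 39947 and 60897 CPM at 18 and 2 months, and to 33308 and 35659 CPM at 12 and 2 months. The 6 fibroblast markers summed to 817 and 171 CPM at 18 and 2 months, with 5 of 5 measured at least 2-fold higher, and to 573 and 877 CPM at 12 and 2 months. The 6 macrophage and dendritic cell markers summed to 96.8 and 25.9 CPM at 18 and 2 months, with 3 of 3 measured at least 2-fold higher, and to 63.8 and 252 CPM at 12 and 2 months, with 5 of 5 at least 2-fold lower. The 4 smooth muscle and pericyte markers summed to 46.9 and 41.8 CPM at 18 and 2 months, and to 102 and 471 CPM at 12 and 2 months, with 3 of 3 measured at least 2-fold lower in that pair. In this gate edgeR called none of these markers. The part of the cells with these markers in the members' differences was not tested.

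In all other cells members summed to 89.1 CPM at 18 months and 257 CPM at 2 months, and to 112 CPM at 12 months and 129 CPM at 2 months. EdgeR called none of 10 tested members there, against a background of 0.171% of 15203 genes called lower and 0.585% called higher. At an unadjusted edgeR p under 0.05 there were 4 members, where 18.3% of all genes passed. DESeq2 called 3 of the 10 members to which it gave an adjusted p, and 5.28% of all such genes. The lowest adjusted p-values were those of Flg (-1.86 ± 0.20, edgeR adjusted p = 0.0539) and Krtdap (-1.40 ± 0.16, edgeR adjusted p = 0.0567).

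Most of this signal was thin, except at 12 months, where 12 cells with at least 20 member UMIs held 60.6% of it. In Col1a1-gated cells (at least 5 Col1a1 UMIs and fewer than 20 member UMIs) members summed to 75.2 CPM at 18 months and 252 CPM at 2 months, and to 42.7 CPM at 12 months and 116 CPM at 2 months. That is 0.249% and 0.717% of the Krt10-high level of the same library at 18 and 2 months, and 0.124% and 0.27% at 12 and 2 months. Krt1, a keratin of suprabasal cells, was at 0.42% and 0.928%, and at 0.294% and 0.502%. The share of a library's UMIs that came from Krt10-high cells was 6.99% and 36.5% at 18 and 2 months, and 5.25% and 6.76% at 12 and 2 months. A UMI of Krtdap was found in 22.5% and 58.5% of Col1a1-gated cells at 18 and 2 months, and in 18.5% and 50.9% at 12 and 2 months. Whether such UMIs were background or expression was not tested, because empty droplets were not measured. Cells with at least 5 UMIs of Cd74 showed member levels of 69 and 195 CPM at 18 and 2 months, and 42 and 142 CPM at 12 and 2 months, close to those of the Col1a1-gated cells.

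Within the Col1a1-gated cells 6 of 9 measured members were at least 2-fold lower at 18 months and 10 of 11 at 12 months, against 3.58% and 7.81% of all genes. None was at least 2-fold higher, against 3.72% and 2.49%. The gate itself leaves out cells with 20 or more member UMIs, so it selects on the values compared. Without that limit the members summed to 75.2 and 252 CPM at 18 and 2 months, and to 62.4 and 117 CPM at 12 and 2 months. The members past 2-fold were counted only with the limit. Of members with at least 20 UMIs in these cells, Lor was at the highest percent of its Krt10-high level in 3 of the 4 libraries, with 2.3% at 18 months and 0.433% and 0.391% at 12 and 2 months. In the version 2 library at 2 months Lor was at 2.04%, from 16 UMIs, and Hrnr at 2.54%, from 22.

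**Figure D5:**
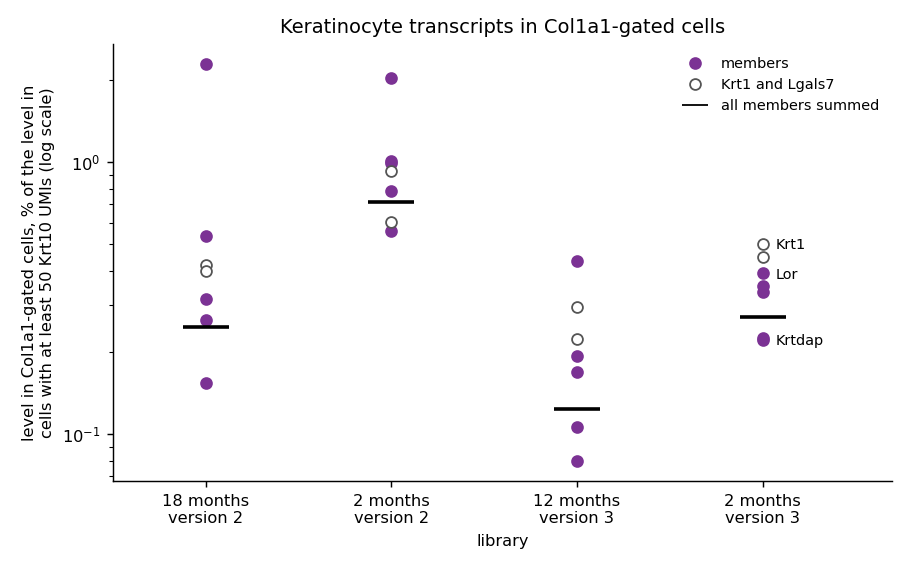
Level in Col1a1-gated cells as a percent of the level in Krt10-high cells of the same library, on a log scale (y axis), for 5 members (filled), Krt1 and Lgals7 (open) and all members summed (bars), 1 column per library. The summed members lie at 0.249% and 0.717% in version 2 (18 and 2 months) and at 0.124% and 0.27% in version 3 (12 and 2 months).

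A few other cells did carry members in quantity. Cells outside the keratinocyte gate with at least 20 member UMIs numbered 2 at 18 months against 0 at 2 months in version 2, and 12 at 12 months and 6 at 2 months in version 3. They held 12.1% of the member UMIs of other cells at 18 months, and 60.6% and 5.86% at 12 and 2 months. The richest, at 12 months, had 1214 member UMIs of 34966, among them 879 of Sprr1a and 248 of Sbsn, beside 6920 UMIs of Krt71 and 5222 of Krt25, keratins of the inner root sheath. It had 3 UMIs of Col1a1 and none of Krtdap or Lor. The 3 richest at 2 months in version 3 had 58 to 197 member UMIs, mostly Sprr1a and Sbsn, together with 167 to 463 UMIs of Krt17 and 473 to 2634 UMIs of Cst6. With these cells included, Sprr1a over all other cells had a ratio of 3.02 (2.77 to 3.29) at 12 months, and of 0.475 (0.388 to 0.58) in the Col1a1-gated cells.

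The remaining members gave little. Of the 13 identifiers with no UMI in keratinocytes, 10 had none in any kept cell. The 4 Sprr genes and 9 Lce genes without a UMI in keratinocytes include Sprr3, Sprr4, Sprr2a1 and Sprr2a2. Lce3d had 26 UMIs at 2 months and none at 18 months in version 2, and 7 and 6 UMIs at 12 and 2 months in version 3. A count of 0 in the Krt10-high cells allows a level of up to 2.23 and 0.512 CPM at 18 and 2 months, and up to 1.13 and 0.634 CPM at 12 and 2 months, by a floor of 3 UMIs.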

How the data were processed

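The authors deposited, for each library, a matrix of raw UMI counts (whole numbers, genes by called barcodes). The submitters' processing notes name STAR (no version), Cell Ranger 2.0.1 and Seurat 2.1.0 on mm10 and GRCm38.p5, and the version 3 matrix headers name software 3.0.1; settings of cell calling and strand use in counting are not given in the sources used here. Only called barcodes were used, so empty droplets were not measured.

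Kept barcodes had 500 or more genes, 1000 or more UMIs and no more than 10% mitochondrial UMIs, and the 3% with the highest Scrublet score per library were removed (scanpy 1.11.5, Python 3.11.15); Scrublet's own threshold was not used, and doublets may remain. CPM is a gene's UMIs over all UMIs of the same cells, times 1000000. Within a pair, genes with at least 20 UMIs in the pair were measured, no test was possible, and a change was counted at 2-fold; ratios have exact Poisson intervals (scipy 1.17.1). Older and 2-month libraries were tested with edgeR 4.0.16 in R 4.3.3 (TMM, filterByExpr), with DESeq2 1.42.0 as an alternative, after the scripts were tested on simulated data. P-values measure only the spread between these libraries.

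The members and lists were chosen with earlier results of these data known. Members with at least 100 UMIs in keratinocytes were named singly. Of each list the 2 genes with the most keratinocyte UMIs and every gene called were named. The Krt10-high gate, the Col1a1-gated cells and the removal of 5 cells were chosen after seeing the data. Gene positions are from GENCODE M21 (GRCm38), and 6 Flg identifiers are not in it.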

Additional observations from a re-analysis of the deposited data

Results flagged for a closer look

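The following ratios passed 2-fold in opposite directions in the 18-month pair (version 2) and the 12-month pair (version 3). The differences between pairs were not tested, because each age and chemistry has 1 library.

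Among members, Sprr2a3 in gated keratinocytes had a ratio of 0.455 at 18 months and of 63.1 (interval 16.9 to 529) at 12 months, where 86 UMIs at 12 months stand against 2 at 2 months. A single cell held 74 of its 86 UMIs at 18 months, and another 52 of the 86 at 12 months. Its values are uncertain, because Sprr2a3 is 99.3% identical to Sprr2a1 over the last 300 transcript bases. In Krt10-high cells Lce3c had no UMI at 18 months, which a floor of 3 UMIs puts at a ratio of 0.125 or less, and a ratio of 2.07 at 12 months. The pseudogene Sprr2j-ps was at 2.62 at 18 months and 0.189 at 12 months. All 9 of its UMIs at 18 months were in 1 cell. Without the richest keratinocyte of each library, 0 and 8 UMIs were left at 18 and 2 months, and 5 and 11 at 12 and 2 months.

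Among list genes in Krt10-high cells, Krt16 was at 0.467 at 18 months and 2.83 at 12 months. Krt17 was at 0.0946 at 18 months and 12 at 12 months. Cst6 was at 0.496 at 18 months and 2.46 at 12 months.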

How the results depend on the processing

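Ratios of the summed members in keratinocytes stayed below 1 under every setting tried. At 18 months (0.577) they were 0.588 with a looser barcode filter, 0.617 with the gate at 5 UMIs per 10000, 0.474 with TMM within the pair, 0.57 with members taken out of the total, and 0.86 in Krt10-high cells. They were 0.569 without the richest cell of each library and 0.527 without the 5 richest. At 12 months (0.671) the same settings gave 0.683, 0.725, 0.657, 0.664, 0.803, 0.651 and 0.632, and no doublet removal and a gate at 10 UMIs gave 0.681 and 0.714.

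In all other cells the ratio at 18 months (0.346) was 0.381 with TMM, 0.299 in Col1a1-gated cells, 0.312 without the richest cell and 0.305 without 5. At 12 months (0.868) it was 0.934, 0.369, 0.678 and 0.508 under those settings, 0.616 with the looser filter, 0.712 with no doublet removal, and 0.901 and 0.902 with the 2 other gates. Of 553 ratios of single members recomputed, 536 stayed on their side of 1. A change past 2-fold reversed in 3: Sprr2j-ps in keratinocytes at 12 months, to 1.49 without its 5 richest cells, and Sprr1a in other cells at 12 months, to 0.475 in Col1a1-gated cells and 0.756 without its 5 richest cells. The cause was not tested.

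Counts of edgeR calls depended strongly on settings. In keratinocytes edgeR called 31 of 11728 genes and 2 of 20 members. With no filter on low counts it called 713 of 17736 genes and 12 of 37 members, and without the chemistry covariate 0 and 0. DESeq2 called 88 of 10859 genes and 9 of 20 members with an adjusted p. The looser filter gave 67 of 11759 and 5 of 20, and no doublet removal 205 of 11940 and 10 of 20. The gate at 10 UMIs gave 1 of 10806 and 0 of 20, and Krt10-high cells 1 of 8996 and 0 of 20. The gate at 5 per 10000 gave 45 of 11749 genes and 5 of 20 members. In other cells edgeR called 115 of 15203 genes and 0 of 10 members. With no filter it called 423 of 20804 and 2 of 26, and without the covariate 0 and 0. DESeq2 called 737 of 13947 genes and 3 of 10 members with an adjusted p. The looser filter gave 370 of 15278 and 2 of 11, and no doublet removal 319 of 15274 and 2 of 10. The gate at 10 gave 272 of 15206 and 1 of 12, and at 5 per 10000 242 of 15214 and 2 of 10. In Krt10-gated cells edgeR called 372 of 10788 genes and 10 of 20 members. With no filter it called 588 of 17096 and 12 of 36, and without the covariate 0 and 0. DESeq2 called 98 of 7815 genes and 9 of 19 members with an adjusted p. No doublet removal gave 97 of 11058 and 3 of 20. The gate of 10 gave 12 of 9411 and 3 of 20, and at 5 per 10000 32 of 10570 and 3 of 20. In Krt10-high cells there were 1 of 8996 and 0 of 20. Every member called under any of these settings was lower in the older libraries.

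Leaving out a library left no residual degree of freedom, so only values exist: the median log2 ratio of tested members was then -1.87 to -1.10 in keratinocytes, -1.63 to -1.23 in other cells and -1.46 to -0.95 in Krt10-gated cells. No paired analysis was possible because the groups compared share fewer than 2 replicate numbers, beyond the chemistry term of the edgeR model, which already sets each older library against the 2-month library of its chemistry. Depth limits the Lce and rarer Sprr2 genes, which rest on a few cells.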
